A study of Homo sapiens with 30 samples.

Results

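The regions described here are 3880 stretches of DNA that gained an open chromatin peak in the prostate cancer line VCaP at 10 nM of the synthetic androgen R1881 without the same gain in the prostate cancer line LNCaP. They were chosen from the peak lists of both lines. From the first VCaP library at 10 nM, 112746 distinct peak spans on chromosomes 1 to 22 and X were ranked by their −log10 p, and the strongest 100000 were kept. Of these, 60898 overlapped one of the strongest 100000 spans in both other VCaP libraries at 10 nM, and 6741 of those had no entry at all in the 3 VCaP vehicle lists. The 2861 spans that also had an entry in all 3 LNCaP libraries at 10 nM and in no LNCaP vehicle library were dropped as gained in both lines. The remaining 3880 made up 57.6% of the VCaP gains and 3.88% of the kept spans. Because VCaP and LNCaP libraries at vehicle and at 10 nM chose these spans, their values there are given as a description, with no test.

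The androgen receptor is a nuclear hormone receptor. When androgen binds it, the receptor moves to the nucleus and binds DNA at a pair of inverted hexamers related to AGAACA, often at enhancers far from gene starts, where pioneer factors such as FOXA1, GATA2 and HOXB13 help to open chromatin. ATAC-seq reads open chromatin through the Tn5 transposase, which inserts sequencing adapters where DNA is accessible, so that a new peak marks DNA that became accessible above the caller's threshold.

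Omni-ATAC-seq, a version of the assay with less mitochondrial background, was applied to 30 libraries, 15 per line. Both lines are established and of prostate epithelial origin: LNCaP carries an androgen receptor with an altered ligand-binding domain, and VCaP carries an amplified androgen receptor gene and a fusion of TMPRSS2 with the ETS factor gene ERG. Cells of both lines, controls included, stood 48 hours in medium with 8% charcoal-treated serum, which is poor in steroids, before 24 hours with vehicle or R1881. VCaP received vehicle or 0.01, 0.03, 0.06 or 10 nM (replicates numbered 1, 2 and 4), and LNCaP vehicle or 0.03, 0.06, 0.1 or 10 nM (replicates numbered 3, 4 and 5), with 3 libraries in each of the 5 groups per line. The lines grew in different media, so line and medium cannot be told apart. Nothing in the labels says whether replicates were separate cultures on separate days, so the tests measure the spread between these libraries, which may be technical.

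Few of these regions lie at promoters, and sequence is shown here for some that do, since promoter windows were the sequence used. In RefSeq promoter windows on GRCh38.p14, which run from 250 bases before to 50 bases after a gene's start, 48 of the 3880 spans overlapped 51 of 34961 windows, with the peak summit inside 25 of them. The 250 bases before the start are printed for 4 of them, 5′ to 3′ on the gene's strand, chosen to show the range of LNCaP states and motif content. Capitals mark the single androgen receptor hexamer AGAACA and the forkhead motif TGTTTAC or TGTTTGC, on either strand.
PCSEAT, chr21:41580225-41580474, plus strand: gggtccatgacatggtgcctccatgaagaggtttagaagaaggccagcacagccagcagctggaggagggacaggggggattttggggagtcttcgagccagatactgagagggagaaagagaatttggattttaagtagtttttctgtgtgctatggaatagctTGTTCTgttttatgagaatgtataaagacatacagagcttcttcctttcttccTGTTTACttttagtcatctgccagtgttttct
ZBTB20, chr3:114745983-114746232, minus strand: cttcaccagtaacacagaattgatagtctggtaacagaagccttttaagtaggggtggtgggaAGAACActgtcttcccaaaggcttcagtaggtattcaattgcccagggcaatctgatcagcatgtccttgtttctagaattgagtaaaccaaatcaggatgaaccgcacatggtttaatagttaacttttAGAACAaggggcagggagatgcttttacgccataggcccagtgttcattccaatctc
PCAT18, chr18:26703639-26703888, minus strand: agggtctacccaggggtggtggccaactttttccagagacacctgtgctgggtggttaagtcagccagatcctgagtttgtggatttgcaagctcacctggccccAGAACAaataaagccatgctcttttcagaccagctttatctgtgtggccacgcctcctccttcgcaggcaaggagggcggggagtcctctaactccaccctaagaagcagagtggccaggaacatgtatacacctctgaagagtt
MANCR, chr10:4678071-4678320, minus strand: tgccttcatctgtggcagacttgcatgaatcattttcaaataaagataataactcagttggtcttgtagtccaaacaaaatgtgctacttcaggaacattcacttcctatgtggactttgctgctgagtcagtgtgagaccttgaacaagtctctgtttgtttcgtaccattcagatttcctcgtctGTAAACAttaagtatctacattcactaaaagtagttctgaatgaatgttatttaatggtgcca

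PCSEAT, PCAT18 and MANCR are long non-coding RNA genes, and ZBTB20 encodes a zinc finger repressor. The values below are percentile ranks: a library's strongest 100000 spans were ordered by −log10 p, and a region received the place of the best peak overlapping it, from 100 for the strongest to 0 for no peak among them. An entry means a peak of any strength in a list, so a region at 0 can still have a weaker entry. The PCSEAT promoter lay within the span chr21:41579950-41581271. In VCaP its ranks were 65.2, 71.9 and 57.9 at 10 nM, and 21.7, 7.8 and 36.5 at 0.06 nM (replicates 1, 2 and 4 in that order, here and below). In LNCaP it was listed in all 3 libraries at 10 nM with lower ranks of 13.8, 22 and 11.8 (replicates 3, 4 and 5, here and below). At LNCaP vehicle its rank was 0, but 2 libraries held a weaker entry, so it did not count as a shared gain. The ZBTB20 promoter, with 2 hexamers in the 250 bases shown, had ranks of 49.2, 29.6 and 65.7 in VCaP at 10 nM and 0 in every LNCaP library. MANCR, with a forkhead match and no hexamer, had ranks of 72.6, 72.3 and 70.8 in VCaP at 10 nM, and 52.6, 56.4 and 37.0 in LNCaP at 10 nM. It was already listed in LNCaP vehicle at 3.0, 22.9 and 5.1. PCAT18 was at 0 in the 9 VCaP low-dose libraries except for a rank of 43.8 in 0.06 nM replicate 4, and reached 56.1, 61.9 and 56.6 at 10 nM. In LNCaP, PCAT18 had 24.7, 21.4 and 15.9 at 10 nM and 0 at vehicle, where 1 library held a weaker entry.

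Across the 51 windows of 300 bases, both strands searched, AGAACA was present in 11 (21.6%), against 14.8% of all windows in the table and 30.4% of the 23 windows under spans gained in both lines. The forkhead motif was present in 8 (15.7%, against 7.16% of all and 4.35% of the 23). AGATAA, the motif of GATA2 and its relatives, was present in 12 (23.5%, against 10.3% of all and 21.7% of the 23), and an ETS motif, CGGAAGT or else AGGAAG, in 12 (23.5%, against 38.3% and 39.1%). TGANTCA, bound by AP-1, was present in 6 (11.8%, against 7.68% and 13.0%). The full palindromic androgen receptor site, of 2 inverted hexamers, was present in 0 of the 51, against 0.392% of all windows and 2 of the 23. The hexamer AGAACA can lie within that longer site. These shares are descriptions of promoter windows, and spans away from promoters were not searched, since no genome sequence was used here.

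The lists held 105034 to 170787 entries in VCaP and 135254 to 223998 in LNCaP. They give no read counts, so the depth is unknown. A relative measure, the background pileup solved from each peak's fold enrichment and p, was 1.14 and 1.09 in VCaP vehicle replicates 1 and 2, 1.78 to 2.74 in the other VCaP libraries, and 3.06 to 5.26 in LNCaP. VCaP vehicle therefore included the libraries with the least background, and a span without a vehicle entry may hold signal below the threshold of those lists. The part of this in the choice of regions was not tested. VCaP replicate 2 stood apart in every group, with 52.9% to 64.4% of the other 93259 spans listed against 67.8% to 78.2% in replicates 1 and 4 at the same low doses and vehicle. Of 10 luminal epithelial marker genes, every VCaP library listed 9 or 10, counting peaks up to 1 kb from either end of the gene, against 0 to 2 of 3 basal, 1 of 3 stromal and 0 to 3 of 3 immune genes.

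At 10 nM in VCaP the regions were of middling strength and lay mostly away from genes' ends. Their median place among the kept spans was 52866.5, the first stood at place 502, and 29 of them were among the strongest 10000. Their median fold enrichment in the authors' lists was 5.09 (quartiles 3.72 and 6.91, highest 21.2), against 6.30 for spans gained in both lines and 5.15 for the other spans. The median width was 488 bp, against 534 bp and 596 bp, and 8.17% held several summits, against 16.6% of other spans. Only 83 (2.14%) lay within 1 kb of an end of a protein-coding gene, against 13.9% of other spans and 1.36% of those gained in both lines. A gene body held 50.3% of them, and 18.7% had no gene within 100 kb. Of the regions, 153 (3.94%) lay within 10 kb of another and 1218 (31.4%) within 100 kb. The same shares were not computed for other spans. The regions made up 1.53% of the kept spans on chromosome 19, the lowest share, and 4.86% on chromosome 13, the highest.

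The edges of the selection are gradual. The last places kept belonged to spans near CCDC77 (place 99902, −log10 p 2.91) and PCGF3 (place 99872), and the next span gained in VCaP, chr21:15290419-15290802, stood at place 100002 with −log10 p 2.89. A span near YWHAB stayed out because of 1 vehicle entry with −log10 p 2.002. Beside the 6741 spans with no vehicle entry, 5136 had 1, 9402 had 2 and 39619 had all 3. Without VCaP 10 nM replicate 2 the rule found 7558 regions in place of 3880, without replicate 2 at vehicle and 10 nM 8432, and with only vehicle entries of −log10 q of at least 5 counted 12361.

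A span was kept out of the shared gains for different reasons in LNCaP, and most had an entry in at least 1 LNCaP library without androgen. Such entries were still less common than among other VCaP spans. Single LNCaP vehicle lists held an entry of any strength for 32.5% to 37.6% of the regions, against 58.2% to 64.7% of the other spans. An entry in at least 1 LNCaP vehicle library was found for 2102 (54.2%), and 1887 (48.6%) combined this with an entry in all 3 LNCaP libraries at 10 nM. All 3 vehicle and all 3 10 nM libraries listed 730. The other 1778 (45.8%) had no LNCaP vehicle entry, and 926 (23.9%) had none at 10 nM either. Over all 15 LNCaP libraries, 827 (21.3%) had no entry in any and 660 (17%) had one in every library. Fewer entries at 10 nM than at vehicle were found for 89 (2.29%). The set thus covers several LNCaP states. The most common was an entry in 1 or 2 vehicle libraries and all 3 at 10 nM (1157 regions), and others had no vehicle entry but one in 1 (373) or 2 (479) of the LNCaP 10 nM libraries.

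**Figure D1:**
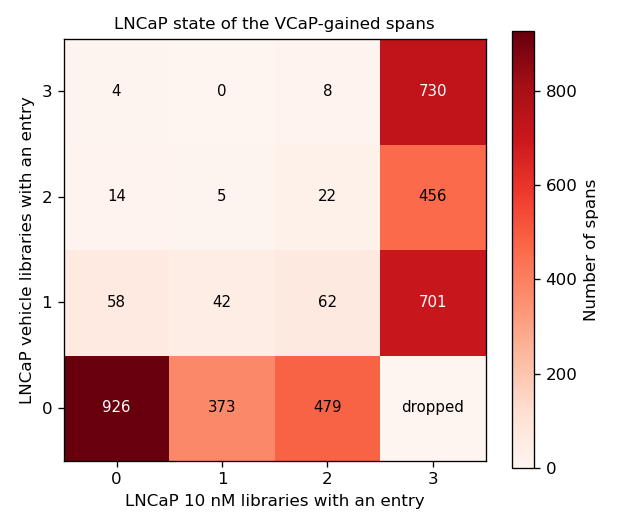
Number of the 3880 regions by how many LNCaP vehicle libraries (vertical axis) and LNCaP 10 nM libraries (horizontal axis) held an entry; darker red means more regions. The corners at 0 and 0 (926) and at 3 and 3 (730) were the fullest cells, and the cell at 0 vehicle and 3 10 nM entries is empty by the rule.

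Among regions with a LNCaP vehicle entry, ranks in LNCaP were higher at higher doses in those with an entry in all 3 libraries at 10 nM, and not in the rest. For the 1157 regions listed in 1 or 2 LNCaP vehicle libraries and all 3 at 10 nM, the median of the regions' mean rank was 4.21 at vehicle, 14.7 at 0.03 nM, 27.9 at 0.06 nM, 38.5 at 0.1 nM and 53.5 at 10 nM. For the 660 regions listed in all 15 LNCaP libraries it was 45.3, 61.2, 67.1, 70.3 and 74.4 at the same doses. The 215 regions with a vehicle entry and fewer than 3 entries at 10 nM went the other way: on average 21.6% of them were among the strongest 100000 spans at vehicle, 15.8% at 0.03 nM, 11.0% at 0.06 nM, 8.22% at 0.1 nM and 9.15% at 10 nM. The classes of 1157 and 215 regions were formed on the vehicle and 10 nM libraries, so their values there rest on libraries the rule used. The class of 660 was formed on all 15 LNCaP libraries, so its values at the low doses rest on libraries that formed it as well.

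The low doses in VCaP were not used by the rule, and there the regions were listed more often at higher dose. At 0.01 nM, 29.3%, 11.2% and 20.8% of the regions had a peak among the strongest 100000 spans. At 0.03 nM the shares were 43.2%, 15.2% and 30.4%, and at 0.06 nM they were 63.9%, 35.2% and 59.5%. Replicate 2 was the lowest at each dose, and every 0.06 nM library lay above every 0.01 nM library. The mean was 52.9% ± 15.5 at 0.06 nM against 20.4% ± 9.08 at 0.01 nM (SD, n = 3 each), a difference of 32.4 points (exact two-sided permutation test, p = 0.1, the smallest that 3 against 3 allows). Within replicate numbers 1, 2 and 4 the rise was 34.6, 24.0 and 38.7 points. The background pileup was 2.13, 1.78 and 2.36 at 0.01 nM and 2.51, 2.05 and 2.69 at 0.06 nM, higher at 0.06 nM within each number, and its part in the rise was not tested. The other kept spans, measured in the same libraries, rose by 6.92 points, from 65.5% ± 11.3 to 72.4% ± 7.16 (exact permutation p = 0.6, groups overlapping). Spans gained in both lines went from 14.2% ± 7.27 to 56.5% ± 17.2, a difference of 42.2 points (exact permutation p = 0.1).

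**Figure D2:**
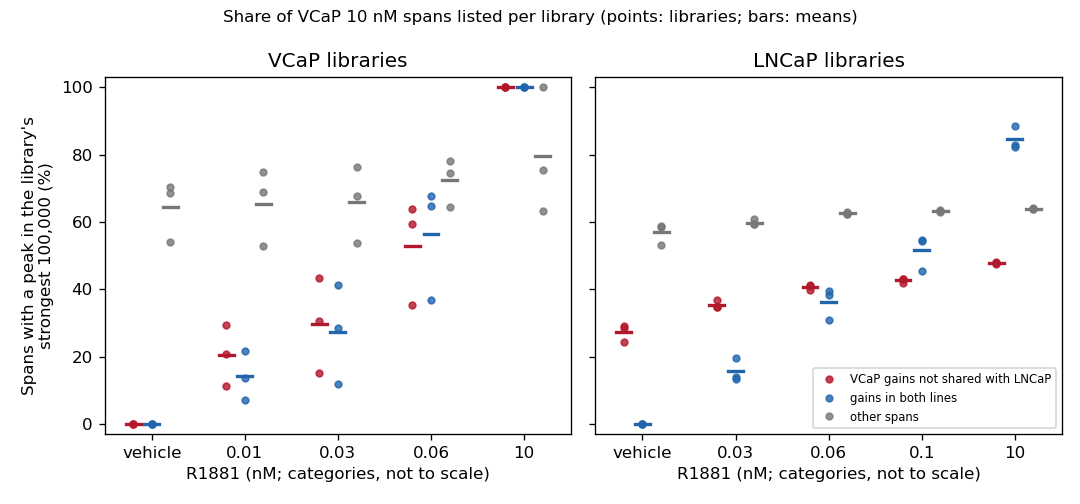
Percent of spans with a peak among each library's strongest 100000, by R1881 dose in VCaP (left) and LNCaP (right); points are libraries, short bars group means, red the 3880 regions, blue the 2861 spans gained in both lines and grey the other 93259 kept spans. In VCaP the red means rise from 20.4% at 0.01 nM to 52.9% at 0.06 nM, while in LNCaP they go from 35.5% at 0.03 nM to 42.6% at 0.1 nM; values at vehicle and 10 nM are fixed in part by the rule.

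An entry of any strength in all 3 libraries of a dose was reached by 162 regions (4.18%) at 0.01 nM, 370 (9.54%) at 0.03 nM and 1198 (30.9%) at 0.06 nM. No low dose had an entry in all 3 libraries for 2547 regions (65.6%). At the extremes, 476 (12.3%) had no entry in any of the 9 low-dose VCaP libraries and 56 (1.44%) had one in all 9. Spans gained in both lines were close to this, with 13.3% in none and 1.19% in all 9. The other spans had 7.53% in none and 42.0% in all 9.

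Region by region, the rise from 0.01 to 0.06 nM did not pass the test. Ranks were compared in 501-bp windows around peak summits with limma, and 3862 of the 3880 regions had a window tested. limma called 0 of them higher and 0 lower at a Benjamini-Hochberg adjusted p under 0.05, where 0% of all 169576 windows were called higher and 0.00059% (1 window) lower. At an unadjusted p under 0.05, 729 regions (18.9%) passed, against 6.4% of all windows. The median difference was 10.8 percentile points against 0 over all windows, and 2757 regions had a difference above 0, 401 below and 704 at 0. A count of 0 here does not show that nothing changed. On simulated normal ranks, limma recovered 36 of 100 windows shifted by 30 points and 44 of 100 shifted by 60 points, among 20000. The simulated windows had a peak in at least 8 libraries. Each took its SD over all 15 VCaP libraries, dose differences included. The simulation thus differs from the test of 169576 windows, and its recovery cannot be carried over to the regions. Without replicate 2 in every VCaP group, limma called 3 of 3120 regions higher (0.0962%, against 0.0321% of all windows). With only the strongest 50,000 spans of each list it called 18 of 1451 (1.24%, against 0.234%).

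Regions already listed in LNCaP vehicle were listed more often at the low doses in VCaP than those that were not. At 0.01, 0.03 and 0.06 nM, VCaP libraries listed on average 26.6%, 37.2% and 60.6% of the regions with a LNCaP vehicle entry, and 13.2%, 20.7% and 43.8% of those without. The first share was higher in 9 of 9 low-dose VCaP libraries, by 4.97 to 23.6 points. The gap between regions listed in all 15 LNCaP libraries and those listed in none was 8.26 to 33.5 points, also in 9 of 9. No low-dose VCaP entry was found for 19.6% of regions without a LNCaP vehicle entry and for 6.09% of those with one. Their median VCaP ranks at 10 nM were 49.2 with and 43.5 without a LNCaP vehicle entry, so the first were also the stronger ones. These 9 libraries come from the same 3 replicate numbers, and no test of this gap over regions was made.

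In LNCaP the dose range not used by the rule runs from 0.03 to 0.1 nM, and a subset of the regions rose in it. The share listed was 36.9%, 34.6% and 34.8% at 0.03 nM, 41.3%, 40.9% and 39.9% at 0.06 nM, and 43.0%, 43.0% and 41.9% at 0.1 nM. The groups at 0.03 and 0.1 nM did not overlap, with means of 35.5% ± 1.28 and 42.6% ± 0.670 (SD, n = 3 each; difference 7.17 points, exact two-sided permutation p = 0.1). Spans gained in both lines differed by 35.9 points and other spans by 3.46 points over the same doses (exact permutation p = 0.1 for each). Because the rule requires no LNCaP vehicle entry of a shared gain, the 2 sets start from different levels. Of 1890 regions with a tested window, limma called 155 (8.20%) higher and 5 (0.265%) lower at 0.1 nM, where 1.49% and 0.343% of all 169238 windows were called; spans gained in both lines gave 412 of 2309. By LNCaP state, 127 of 1114 tested regions with 1 or 2 vehicle entries were called higher, 28 of 733 with 3 vehicle entries, and 0 of 43 with none. A window needed a peak in at least 3 LNCaP libraries to be tested, so the tested regions are those with LNCaP signal. The count of 155 fell to 50 without 0.1 nM replicate 4 (2.66%, against 0.614% of all windows), 58 without 0.1 nM replicate 3 (3.09%, against 0.605%) and 90 without 0.03 nM replicate 4 (4.78%, against 0.882%).

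At 0.06 nM, a dose given to both lines and not used by the rule, the regions split in both directions. VCaP listed 52.9% ± 15.5 of them and LNCaP 40.7% ± 0.686 (SD, n = 3 each; difference 12.2 points, exact two-sided permutation p = 0.4, groups overlapping). Other spans were also listed more often in VCaP, by 9.82 points (exact permutation p = 0.1, groups apart). Spans gained in both lines differed by 20.1 points (exact permutation p = 0.3, groups overlapping), so the regions lay between these sets. With only the strongest 50,000 spans of each list the regions' difference was −5.28 points, and without VCaP 0.06 nM replicate 2 it was 21.1 points. The regions were higher in VCaP in 723 of 3864 tested windows (18.7%) and lower in 657 (17%) by limma at an adjusted p under 0.05, against 10.9% and 13% of all 239727 windows. Spans gained in both lines were higher in VCaP more often, in 794 of 2858 (27.8%), and lower in 5.81%. The regions' excess over all windows in the higher direction depended on the setting: it was 8.88% of regions (187) against 15.2% of all windows with the strongest 50,000 spans, and 20.6% (419) against 20.6% when only the 6 libraries were fitted. The direction followed the LNCaP vehicle state. With no LNCaP vehicle entry, 539 of 1765 were higher in VCaP and 0 lower. With 1 or 2 vehicle entries, 170 were higher and 245 lower of 1357. With all 3, 14 were higher and 412 lower of 742, and the median difference was −33.2 percentile points. Among regions listed in all 15 LNCaP libraries, 406 of 660 were lower in VCaP and 3 higher (median −36.0 points). Shares by LNCaP state were not computed over all windows. A region with no LNCaP entry cannot be lower in VCaP, so the directions of the outer classes are in part fixed by how they were formed. The limma spread came from all 30 libraries, those used by the rule included, and regions at 0 in many libraries add little to it. Regions could also meet the filter of a peak in at least 3 libraries through the VCaP 10 nM libraries that chose them.

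**Figure D3:**
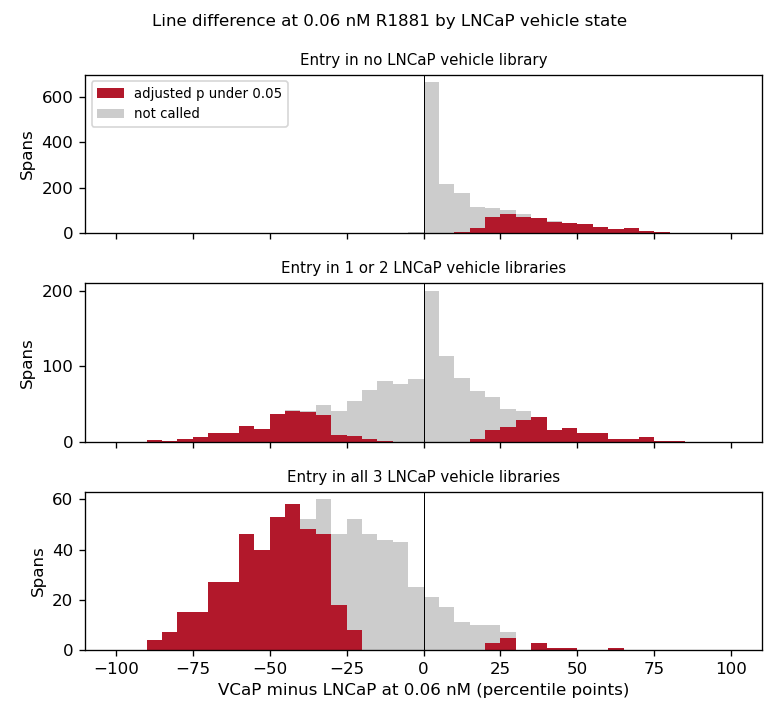
Difference in percentile rank between VCaP and LNCaP at 0.06 nM (horizontal axis, percentile points) for the tested regions with an entry in no (top), 1 or 2 (middle) or all 3 (bottom) LNCaP vehicle libraries; bars count regions in steps of 5 points, stacked, with red for an adjusted p under 0.05 by limma and grey for the rest. Called regions lie to the right of 0 at the top (539 higher, 0 lower) and mostly to the left at the bottom (14 higher, 412 lower).

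The strongest regions at 10 nM included both kinds. The span chr11:63583021-63583875 in PLAAT3, which encodes a phospholipase A and acyltransferase, had the highest mean rank, with 99.5, 98.7 and 99.4 in VCaP at 10 nM. It was at 0 in all 3 libraries at 0.01 nM, at 9.8, 0 and 0 at 0.03 nM, and at 56.1, 15 and 86.6 at 0.06 nM. In LNCaP it was at 0 in every library, although 2 libraries at 10 nM held a weaker entry beyond their strongest 100000. At 0.06 nM, PLAAT3 was 52.6 ± 9.63 points (SE) higher in VCaP (limma, adjusted p = 0.000177). That SE rests on the spread over all 30 libraries, most of them at 0 here. The SD of the VCaP ranks at 0.06 nM alone was 35.9.

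A span 13.0 kb from CHL1, a neural cell adhesion molecule of the L1 family, had the highest fold enrichment of all, 21.2 (chr3:183510-184169). Its VCaP ranks were 65.5, 0 and 60.6 at 0.01 nM, 88.3, 84.6 and 87.5 at 0.03 nM, 92.3, 85.1 and 89.1 at 0.06 nM, and 97.9, 96.5 and 94.5 at 10 nM. None of the 15 LNCaP libraries had an entry, and CHL1 was 88.8 ± 9.89 points higher in VCaP at 0.06 nM (limma, adjusted p = 1.53e-07). Unlike PLAAT3, it was near its full rank by 0.03 nM.

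The regions near SLC9A9, an endosomal sodium-proton exchanger, TRIM52, a tripartite motif protein, and PIP4P2, a phosphoinositide phosphatase, had ranks above 0 in all VCaP libraries from 0.03 nM and in all LNCaP libraries from 0.03 nM. At 0.01 nM in VCaP, PIP4P2 had 51.7, 7.6 and 0 and TRIM52 had 59.6, 66.7 and 0. SLC9A9 (chr3:143286258-143287111) had ranks of 56.9, 40.2 and 40.5 in VCaP at 0.01 nM, and of 64.7, 62.7 and 50.8 in LNCaP at 0.03 nM. It had 95.6, 97.2 and 98.9 in LNCaP at 10 nM. SLC9A9 missed being a shared gain through 1 LNCaP vehicle entry that lay outside the strongest 100000 spans. It rose by 30.6 ± 3.86 points (SE) in LNCaP from 0.03 to 0.1 nM (limma, adjusted p = 0.00144). ZNF695, a zinc finger gene, also had 1 weak LNCaP vehicle entry, and its span at chr1:246938794-246939365 was 54.2 ± 10.2 points higher in VCaP at 0.06 nM (limma, adjusted p = 0.000242).

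Among regions with no entry in any LNCaP library, the next strongest lay near PIP5K1A, a kinase that makes the lipid PIP2, FAM135B and NAV2, a neuron navigator protein. NAV2 (chr11:19667051-19667584) was at 0 in all 3 libraries at 0.01 nM, at 34.8, 30.2 and 56.8 at 0.03 nM, at 71.1, 61.1 and 75.3 at 0.06 nM and at 83.0, 86.6 and 82.7 at 10 nM. Its groups at 0.01, 0.03 and 0.06 nM did not overlap. NAV2 was 69.2 ± 5.90 points (SE) higher in VCaP at 0.06 nM (limma, adjusted p = 1.61e-09). The region was picked for having no entry in any LNCaP library, those at 0.06 nM included, so the LNCaP side was fixed at 0. This p-value is therefore no independent support, and the SE rests on libraries of both lines, most of them at 0 here. PIP5K1A had 41.7, 0 and 42.9 at 0.06 nM, with ranks of 91.2, 89.5 and 92.8 at 10 nM.

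Among regions listed in all 15 LNCaP libraries, ARID3B, an AT-rich DNA-binding protein, was strong in LNCaP at every dose. Its span chr15:74597736-74598479 had LNCaP ranks of 95.8, 93.9 and 90.9 at vehicle and 93.3, 90.2 and 88.3 at 10 nM. In VCaP, ARID3B stood at 26.1, 0 and 27.1 at 0.01 nM, at 51.2, 0 and 64.0 at 0.03 nM, at 80.7, 52.7 and 85.7 at 0.06 nM and at 92.8, 82.2 and 90.9 at 10 nM. At 10 nM, VCaP replicates 1 and 4 were close to the ranks that LNCaP had without androgen, and replicate 2 was lower. RFTN2, a raft-linked protein, and a site near EGFL7, a secreted vascular factor, had LNCaP vehicle ranks of 36.5 to 59.5 and 18.9 to 49.6.

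**Figure D4:**
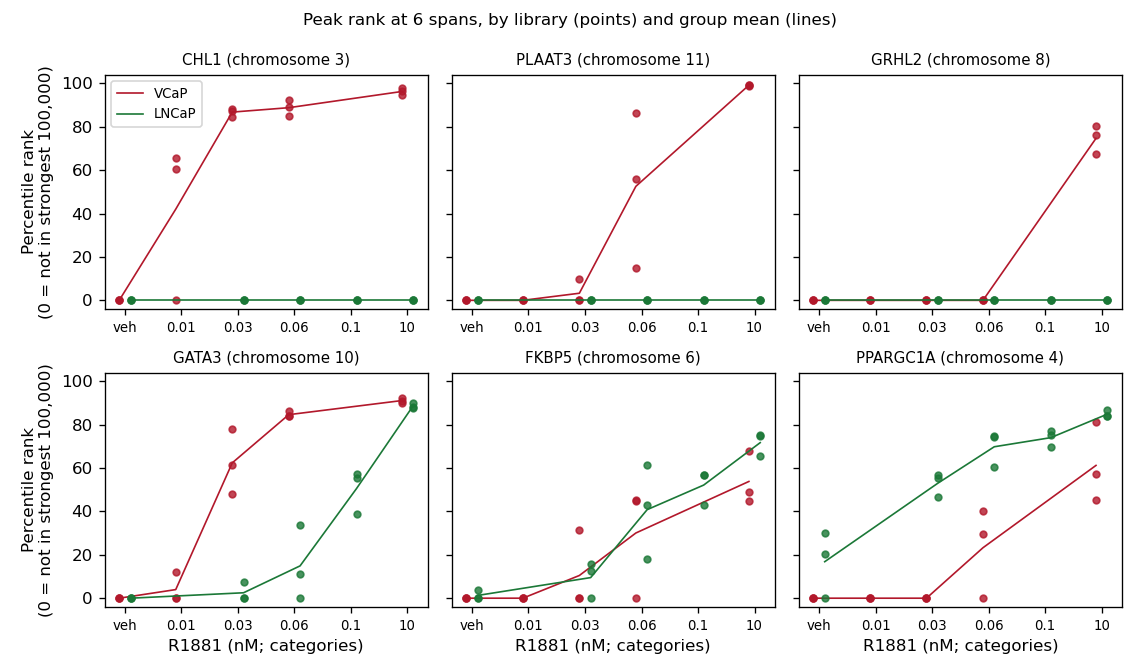
Percentile rank (vertical axis, 0 = no peak among the strongest 100000) by R1881 dose at the named region of 6 genes, in VCaP (red) and LNCaP (green); points are libraries and lines join group means, and LNCaP was not treated at 0.01 nM nor VCaP at 0.1 nM. CHL1 is at 84.6 or above in VCaP from 0.03 nM, PLAAT3 and GRHL2 reach their high ranks only at higher doses, all 3 stay at 0 in LNCaP, and GATA3, FKBP5 and PPARGC1A have ranks above 0 in both lines.

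Of 45 androgen-induced genes measured, 19 (42.2%) were the nearest gene of at least 1 of the regions, against 2524 of 17080 genes (14.8%). These genes have a median of 11 kept spans each, against 3 for all genes, and per span the shares were 4.82% (31 of 643) and 3.67% (3155 of 85931). A nearest gene is not shown to be regulated from the region. For each gene named here and below, the region of highest mean rank at 10 nM is described.

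HPGD, which inactivates prostaglandins, SLC45A3, a prostate transporter also called prostein, ABCC4, an organic anion transporter, and NDRG1 had regions with no LNCaP vehicle entry. HPGD (chr4:174539575-174540255) was at 0 in all 9 low-dose VCaP libraries and reached 74.2, 63.8 and 70.4 at 10 nM. ABCC4 (chr13:95020282-95020592) had 58.3, 0 and 53.3 at 0.06 nM and was 37.2 ± 9.49 points higher in VCaP than in LNCaP at that dose (limma, adjusted p = 0.00465). SLC45A3 was 26.0 ± 9.25 points higher (limma, adjusted p = 0.0425), a call lost in 7 alternatives, among them the omission of any 1 LNCaP library at 0.06 nM and of VCaP replicate 2 (adjusted p of lost calls 0.0890 to 1.0). The region near TMPRSS2, the androgen-driven protease gene fused to ERG in VCaP, is the span over the PCSEAT promoter, 72.3 kb from TMPRSS2. It was 22 ± 7.15 points higher in VCaP at 0.06 nM (limma, adjusted p = 0.0255), a call lost in 9 alternatives, among them the omission of any 1 LNCaP library at 0.06 nM and of VCaP replicate 1 or 4 (adjusted p of lost calls 0.0557 to 1.0).

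Other androgen-induced genes varied in direction. ELOVL5, a fatty acid elongase, had LNCaP ranks of 48.9, 49.1 and 61.5 at vehicle and 86.0, 88.5 and 75 at 0.06 nM. In VCaP the ELOVL5 region (chr6:53301026-53301484) stood at 40.1, 1.7 and 0 at 0.06 nM, 69.2 ± 11.0 points lower (limma, adjusted p = 2.96e-05). FKBP5, a co-chaperone of steroid receptors, had a region (chr6:35639866-35640835) at 45.0, 0 and 45.2 in VCaP and 61.5, 43.1 and 17.9 in LNCaP at 0.06 nM. Those groups overlapped, and FKBP5 was not called between the lines (difference −10.7 points, limma adjusted p = 0.578). Within LNCaP it rose by 42.6 ± 9.93 points from 0.03 to 0.1 nM (limma, adjusted p = 0.0444), a call lost in 10 alternatives, the omission of any 1 of the 6 libraries included (adjusted p of lost calls 0.0512 to 0.765). KCNMA1, a potassium channel, and HERC3, a ubiquitin ligase, had no LNCaP entry and VCaP low-dose ranks of at most 12.3 and 0.

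Luminal and pioneer factor genes had a region nearest for 13 of 25 genes (52%, against 14.8% of all genes), with a median of 9 kept spans each against 3. Per span, 22 of 331 (6.65%) were among the regions, against 3.67% over all genes. The share is not particular to luminal genes: the small basal, stromal, immune and neuroendocrine lists had 4.76% to 7.69% per span. GATA3, a luminal transcription factor, had a region at chr10:8137610-8138274, 62.8 kb from the gene. Its VCaP ranks were 11.9, 0 and 0 at 0.01 nM, 61.2, 48.2 and 77.8 at 0.03 nM, 84.0, 83.8 and 86.1 at 0.06 nM and 91.0, 90.1 and 92.3 at 10 nM. In LNCaP it had 33.7, 0 and 11.0 at 0.06 nM, 55.4, 57.5 and 38.9 at 0.1 nM and 88.1, 87.9 and 90.1 at 10 nM. GATA3 thus reached high ranks in both lines at 10 nM but at lower doses in VCaP, where it was 69.7 ± 7.84 points higher at 0.06 nM (limma, adjusted p = 1.79e-07).

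NFIB, a nuclear factor I family member that can bind near the androgen receptor, had 52.2, 21.8 and 41.1 in VCaP at 0.01 nM and 61.9, 74.9 and 62.4 at 0.06 nM. At 0 in every LNCaP library, NFIB was 66.4 ± 6.90 points higher in VCaP (limma, adjusted p = 4.87e-08). GRHL2, a grainyhead factor of epithelial cells, had a region (chr8:101433948-101434494) at 0 in the 9 low-dose VCaP libraries and in every LNCaP library. At 10 nM in VCaP it had 80.6, 76.1 and 67.4. Below the strongest 100000, 1 low-dose VCaP list held a weaker entry for GRHL2 and no LNCaP list did.

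ETS factor genes had a region nearest for 5 of 11 genes, with 9 of 169 spans (5.33%, against 3.67% over all genes). ERG, whose coding part is fused to TMPRSS2 in VCaP, was nearest to 4 regions. The described ERG region (chr21:38383484-38384400) had 27.3, 56.5 and 8.2 in VCaP at 0.01 nM, 22.2, 35.7 and 24.9 at 0.06 nM and 48.1, 32.3 and 43.8 at 10 nM. In LNCaP it had an entry in 8 of 15 libraries, mostly weak: its rank was 36.2 in vehicle replicate 5, 6.4 in 0.03 nM replicate 3 and 0 in the others. At 0.06 nM it was 27.6 ± 7.46 points higher in VCaP (limma, adjusted p = 0.00731). The ranks of ERG at 0.01 and 0.06 nM overlapped. ETV1 and ELK4, other ETS factors, were at 0 in the 9 low-dose VCaP libraries.

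Lipid and sterol genes had a region nearest for 6 of 20, with 13 of 209 spans (6.22%, against 3.67% over all genes), and 2 related coactivators went opposite ways. PPARGC1A, a coactivator of mitochondrial genes, was nearest to 4 regions, and the one described (chr4:24236437-24236814) had 40.3, 0 and 29.5 in VCaP and 74.3, 60.3 and 74.9 in LNCaP at 0.06 nM. It was 46.6 ± 9.25 points lower in VCaP (difference −46.6, limma, adjusted p = 0.000437). PPARGC1B had 79.6, 72.6 and 75.8 in VCaP and 30.8, 27.8 and 0 in LNCaP, 56.5 ± 13.2 points higher in VCaP (limma, adjusted p = 0.00215).

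Cell cycle genes were nearest to a region for 3 of 28 (10.7%, against 14.8% of all genes). Per span the share was 2.70% (3 of 111), against 3.67% over all genes. E2F7, a repressing E2F factor, had 23.8, 0 and 0 in VCaP and 57.8, 50.1 and 38.6 in LNCaP at 0.06 nM, so that no VCaP library reached the LNCaP range (limma difference −40.9 ± 7.20 points, adjusted p = 0.000109). E2F3, an activating E2F factor, had 29.6, 0 and 25.7 in VCaP and 0 throughout LNCaP (limma, adjusted p = 0.0200, not called without VCaP replicate 1 or 4 or LNCaP replicate 3 or 4 at this dose). CCND1, the gene of cyclin D1, was at 0 in all low-dose libraries. Cell cycle inhibitor genes were nearest for 3 of 13, with 4 of 64 spans (6.25%). Androgen-repressed genes were nearest for 6 of 15 (40%), but they have a median of 11 kept spans each, against 3 for all genes. Per span their share was 3.10% (7 of 226), below the 3.67% over all genes. Of these genes, CDH2, the gene of N-cadherin, had a region at 30.6, 62.1 and 47.6 in VCaP at 0.06 nM against 0, 0 and 1.8 in LNCaP (limma, adjusted p = 9.36e-06). Genes induced by both glucocorticoid and androgen were nearest for 4 of 12, with 6 of 112 spans (5.36%). The basal, stromal, immune and neuroendocrine lists had 1 of 7, 1 of 8, 1 of 4 and 2 of 8, and the housekeeping list 0 of 8. Per span these were 4.76% (1 of 21), 7.69% (2 of 26), 5.56% (1 of 18), 4.88% (2 of 41) and 0 of 37. DSC3, a desmosomal cadherin of basal cells, was the basal gene, with ranks of 88.9 to 90.7 in LNCaP vehicle and 42.0, 53.3 and 0 in VCaP at 0.06 nM.

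The genes with the most regions were RBMS3, an RNA-binding protein gene, with 7 of its 37 kept spans, GLIS3, a zinc finger factor, and FHIT, a gene at a fragile site, with 6 each, and PDE4D, a cAMP phosphodiesterase, and CTNND2, a delta-catenin, among those with 5. Their strongest regions differed in state. RBMS3 was at 0 in all low-dose VCaP and all LNCaP libraries and had 68.8, 64.0 and 68.8 at 10 nM. PDE4D (chr5:60196473-60196969) had LNCaP vehicle ranks of 58.8, 62.5 and 70.5, and at 0.06 nM its VCaP ranks of 55.2, 65.9 and 51.1 lay below the LNCaP ranks of 80.7, 78.3 and 86.4 (limma difference −24.4 ± 5.13 points, adjusted p = 0.000797). Many kept spans in a long gene give more chances of holding one of the regions.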

How the data were processed

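The 30 deposited peak lists, 1 per library, are the only data. Per the submitters' processing notes, the tools were MACS2 2.2.7.1, BWA 0.7.17, deepTools 3.5.1 and Trimmomatic 0.39, on GRCh38 (hg38). The authors' lists give for each peak a score, a fold enrichment ratio over local background, a −log10 p and −log10 q, and the summit's offset. The regions and gene lists were chosen with earlier results of these data known.

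Each list was reduced to its strongest 100000 spans by −log10 p. VCaP vehicle replicate 1 and 0.01 nM replicate 4 held only 95622 and 93180 and were kept whole. Overlap meant at least 1 bp. Summits of all libraries were reduced to non-overlapping windows reaching 250 bp to either side, and 3874 regions had one. limma 3.58.1 in R 4.3.3 (trend, robust, group means, Benjamini-Hochberg adjusted p under 0.05, two-sided) compared ranks in 3 comparisons of libraries that the rule did not use, over windows with a peak in at least 3 libraries. The script was tested on simulated ranks. Shares were compared with exact permutation tests.

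Named regions are the 8 of highest mean rank at 10 nM, for up to 10 androgen-induced genes and up to 3 of each other list with most regions the one of highest rank, 4 listed in none and 4 listed in all of the LNCaP libraries, 5 genes with the most regions, and any called between VCaP doses. Genes are the nearest protein-coding body within 100 kb in RefSeq GRCh38.p14. Its table gave no strand, so gene ends stand for starts, and exons were not analysed. The labels do not say whether replicate numbers pair the libraries. Deviations from group means of same-numbered libraries correlated at 0.194, 0.220 and 0.117 (VCaP 0.06 and 0.01 nM) and 0.132, 0.130 and 0.308 (LNCaP 0.1 and 0.03 nM). Over all groups, same-numbered libraries had medians of 0.145 in VCaP and 0.136 in LNCaP. Differently numbered ones had −0.095 and −0.108. The LNCaP ranges overlapped, at −0.185 to 0.501 and −0.452 to 0.343. The main tests were unpaired. Alternatives covered list length, ranking, overlap, filters, left-out libraries and a replicate block.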

Additional observations from a re-analysis of the deposited data

How the results depend on the processing

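The number of regions was 1069 with the strongest 50,000 spans, 12361 when vehicle entries under −log10 q 5 were ignored, 4359 to 7558 when 1 library was left out, and 8432 without VCaP replicate 2 (an alternative chosen after seeing the data). The share difference between lines at 0.06 nM reversed to −5.28 points with the strongest 50,000 spans. It ranged from 6.69 to 21.1 points with 1 library left out. Between VCaP 0.06 and 0.01 nM, the calls of 0 became 18 with the strongest 50,000 spans (1.24%, against 0.234% of all windows), 4 with windows in at least 1 library (0.103%, against 0.00296%), 3 (0.0962%, against 0.0321%) without replicate 2 in every group (added after seeing the data), and 0 to 1 with 1 library left out. The 155 higher in LNCaP became 82 with all peaks (3.63%, against 0.956%), 30 with only the 6 libraries compared (1.87%, against 0.446%), and 50 to 160 with 1 library left out. The 5 lower became 0 with all peaks, with the strongest 50,000 spans and with only the 6 libraries, 3 when ranked by fold, by the centre base or on spans, 1 with windows in at least 8 or 1 libraries, and 0 to 4 with 1 library left out. The 723 regions higher in VCaP (18.7%, against 10.9% of all windows) became 187 with the strongest 50,000 spans (8.88%, against 15.2%), 454 with windows in at least 8 libraries (20.1%, against 16.5%) and 419 with only the 6 libraries (20.6%, against 20.6%), so that the excess over all windows reversed or vanished in the first and last of these. The causes were not tested.

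With the replicate block, limma called 0 regions between VCaP doses, and 183 higher and 4 lower in LNCaP. The paired shares gave p = 0.25 (exact sign flips, the smallest 3 pairs allow), and the block moved no count by over 1.5 times. The lines share only replicate number 4, so no block was possible between them. Over the alternatives, the calls of 24 named regions between the lines were kept 274 times, lost 47 times and reversed 0 times, and those of 6 in LNCaP were kept 58 times, lost 32 times and reversed 0 times. Lists end at the caller's threshold, and reads per library are unknown, so a 0 can hold signal.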
